A study of Homo sapiens with 36 samples.

Results

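The genes described here were 10 genes of the ATF4 and endoplasmic reticulum (ER) stress response: ATF4, DDIT3, ATF3, ASNS, TRIB3, CHAC1, SESN2, HSPA5, HERPUD1 and XBP1. They were taken by gene symbol from a count table of 18932 genes, in which all 10 were found. RNA-seq was performed on HepG2 cells, a human hepatoma line that keeps many features of hepatocytes, after exposure to bioactive compounds for 6 h or 24 h. The compounds were docosahexaenoic acid (DHA, 50 µM), an n-3 polyunsaturated fatty acid, the short-chain fatty acid propionate (PRO, 70 µM) and the phenolic compound protocatechuic acid (PCA, 20 µM). Cells received DHA, PRO, PCA, DHA + PRO, DHA + PCA or vehicle and bovine serum albumin without compound (Ctrl), which gave 12 groups of 3 libraries. All groups shared serum-free medium from the start of the exposure, 24 h after seeding, so that exposure time and time without serum cannot be told apart. Per the study's methods, 3 independent cultures were made of this single line, and each library pooled the RNA of 3 replicates of a culture.

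Library totals ranged from 4659744 to 10788964 counts, apart from DHA + PRO replicate 2 at 24 h with 42326734, 6.22 times the median of the remaining 24 h libraries. Hepatocyte genes were abundant in all 36 libraries: ALB ranged from 21851 to 31857 and AFP from 6685 to 10783 CPM, the counts scaled to a common library size. Of 8 genes marking leukocytes, macrophages, endothelium and stroma, PTPRC was at 0 in 34 libraries, VWF in 18, PECAM1 in 16, COL3A1 in 12 and COL1A1 in 3, while CD68, ACTA2 and PDGFRB were detected in every library. HMGCS1, an enzyme of cholesterol synthesis used to check the exposure to DHA, fell by 0.81 at 6 h and by 0.72 at 24 h on the log2 scale in the libraries with DHA (adjusted p = 6.18e-08 and 3.22e-07, edgeR).

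When unfolded proteins collect in the ER, or when amino acids run short, kinases phosphorylate the initiation factor eIF2. General translation then slows, while translation of the transcription factor ATF4 increases, and ATF4 turns on genes of amino acid supply and stress signalling. In parallel, the ER sensors ATF6 and IRE1 (gene ERN1), the latter through splicing of XBP1 mRNA, turn on chaperones and degradation factors of the ER. Because ATF4 is controlled largely at translation and XBP1 by splicing, the gene-level mRNA counts given here do not measure the activity of either protein.

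The sequences below show which of the genes carry the elements that these factors are known to bind, near an annotated start. Windows of 300 bases, from 250 before to 50 after each start (RefSeq, GRCh38.p14), were found for all 10 genes and searched on both strands. The C/EBP-ATF response element (CARE, TGATGNAA) was held by 3.62% of 35116 promoters, the unfolded protein response element (UPRE, TGACGTGG) by 0.729% and the cAMP response element (CRE, TGACGTCA) by 1.85%. UPRE and CRE begin with the same 6 letters. The ER stress response element (ERSE, CCAAT, 9 bases of any kind, CCACG) was held by 0.0769% of promoters. Matches are in capitals with 20 bases on either side, each written in the direction of its gene.
ATF3, CARE, chr1:212565196-212565243, plus strand: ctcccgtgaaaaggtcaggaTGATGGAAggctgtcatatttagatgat
ASNS, CARE, chr7:97872449-97872496, minus strand: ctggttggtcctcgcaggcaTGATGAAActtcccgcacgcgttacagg
CHAC1, CARE on the opposite strand, chr15:40953242-40953289, plus strand: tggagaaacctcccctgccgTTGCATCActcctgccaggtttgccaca
HERPUD1, CARE on the opposite strand, chr16:56931946-56931993, plus strand: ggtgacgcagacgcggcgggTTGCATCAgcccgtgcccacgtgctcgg
HSPA5, ERSE, chr9:125241371-125241429, minus strand: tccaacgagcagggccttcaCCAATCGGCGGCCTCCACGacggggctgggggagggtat
XBP1, ERSE, chr22:28800583-28800641, minus strand: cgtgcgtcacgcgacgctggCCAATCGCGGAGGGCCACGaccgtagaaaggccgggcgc

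The elements began 191 bases before the start in ATF3, 68 in ASNS, 209 in CHAC1, 176 in HERPUD1, 66 in HSPA5 and 52 in XBP1. ATF3, ASNS and XBP1 each have 2 annotated starts, and the element lay near 1 of them. None of the 4 motifs was in the windows of ATF4, DDIT3, TRIB3 or SESN2, which says only that these letters are not there. A match is a description of the sequence, and binding was not measured.

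In the count table (hg19), ATF4 lies at chr22:39916564-39918691 on the plus strand, DDIT3 at chr12:57910371-57914300 on the minus strand, ATF3 at chr1:212738676-212794119 on the plus strand and ASNS at chr7:97481429-97501854 on the minus strand. TRIB3 lies at chr20:361273-378203, CHAC1 at chr15:41245636-41248717, SESN2 at chr1:28585963-28609002 and HERPUD1 at chr16:56966002-56977793, all on the plus strand, and HSPA5 at chr9:127997127-128003666 and XBP1 at chr22:29190548-29196560 on the minus strand. Reads were counted over the exons of each gene, between 947 bases for DDIT3 and 3970 for HSPA5.

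Per length of transcript, the ER chaperone HSPA5 (BiP, which binds unfolded proteins) had the highest median over the 36 libraries, at 324 RPKM (CPM divided by the counted length in kilobases; range 272 to 371). ATF4 followed at 264 RPKM (183 to 389), and XBP1, which encodes the transcription factor spliced by IRE1, at 232 RPKM (189 to 296). The ranges of these genes overlapped. TRIB3, a pseudokinase that holds back ATF4, had a median of 81.5 RPKM (43.5 to 123), and HERPUD1, a membrane protein of ER-associated degradation, of 48.7 RPKM (36.2 to 62.6). ASNS, which makes asparagine, had 28.5 RPKM (16.1 to 62.5). DDIT3 (CHOP), a transcription factor of prolonged stress, had 16.5 RPKM (11.1 to 26.2) and SESN2, which restrains growth signalling through mTORC1, had 12.0 RPKM (9.86 to 14.6). ATF3, a stress-induced repressor, had 2.68 RPKM (0.768 to 5.27), below every library of the genes named so far. CHAC1, which breaks down glutathione, had 27 reads in all 36 libraries together and was the only gene of the 10 that did not pass the filter on low counts. The other 9 were tested among 11872 genes at 6 h, 11893 at 24 h and 12046 over both times.

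**Figure D1:**
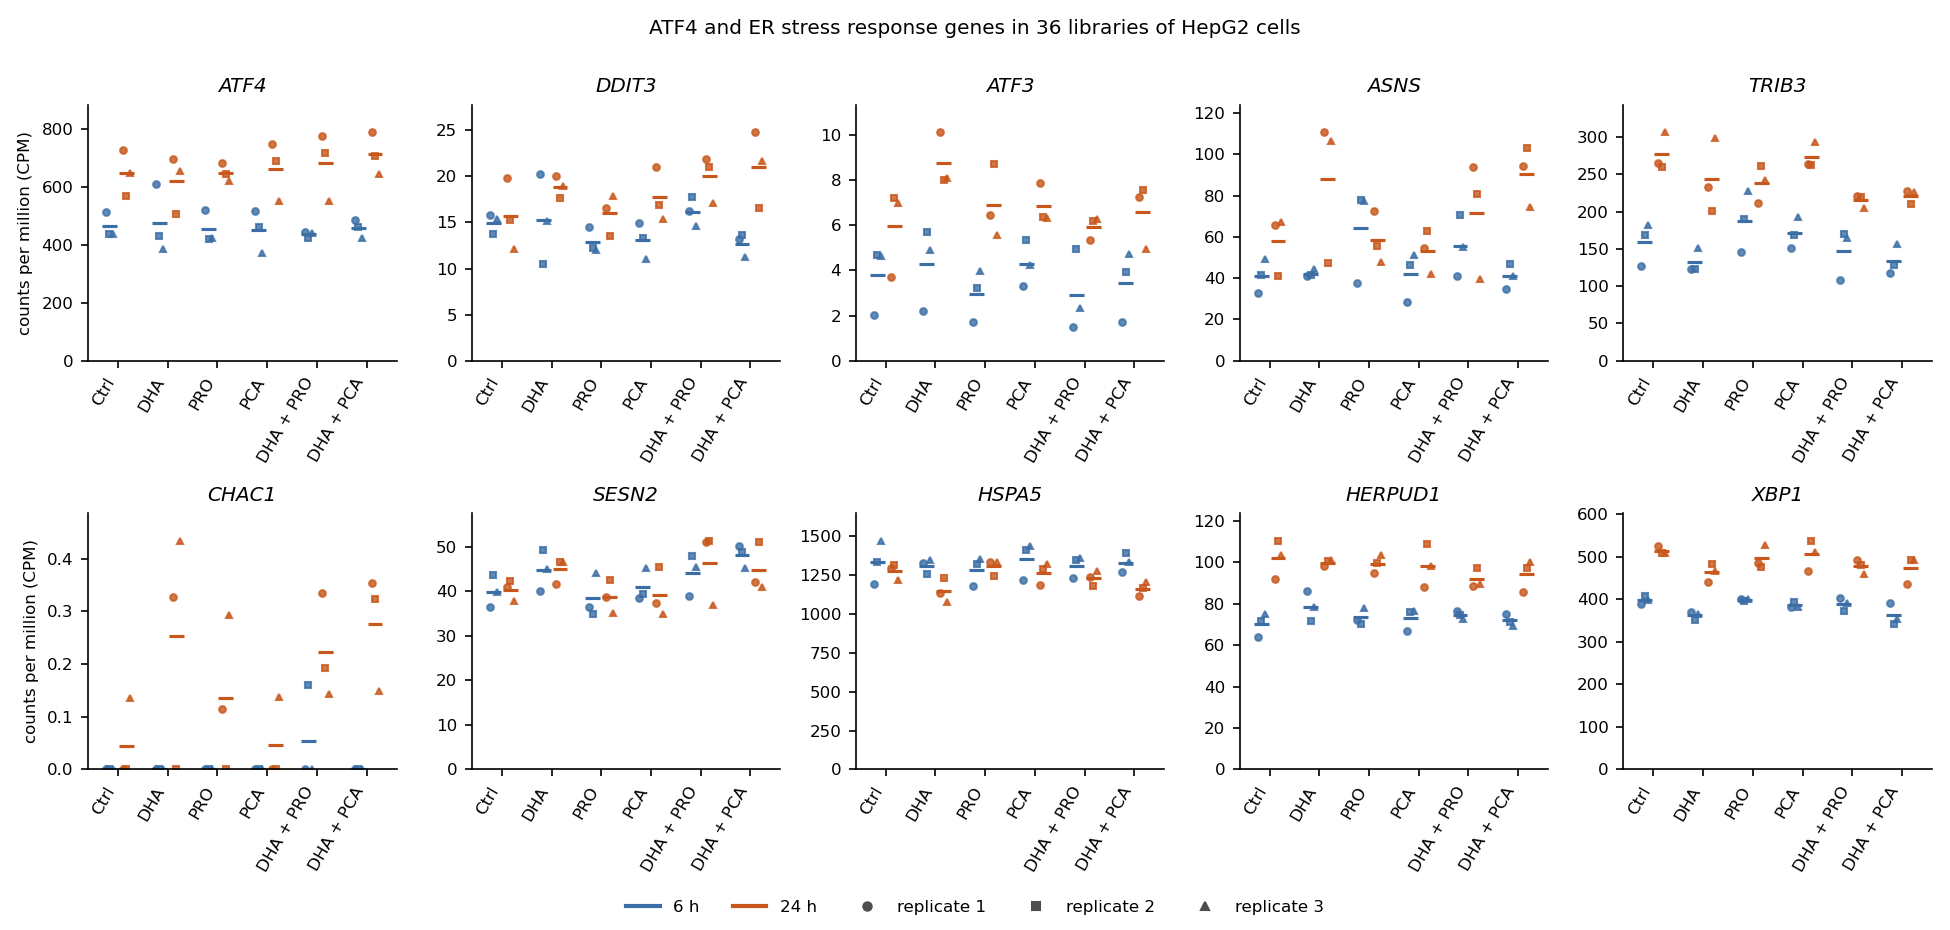
Level of each gene in CPM (linear axis from 0) in every library, by condition, with 6 h in blue, 24 h in orange, symbols for the replicate number and bars for the mean of 3 libraries. In the XBP1 panel every library of 24 h (437 to 538) lies above every library of 6 h (343 to 407), while SESN2 stays between 34.8 and 51.4 at both times.

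Most calls among the 10 genes were between the times of exposure, and this comparison asks how the genes moved between 6 h and 24 h in the mean of the 6 conditions. A gene was called when its Benjamini-Hochberg adjusted p in edgeR's quasi-likelihood test was at most 0.05 and its average log2 CPM was above 0. Of the 9 genes tested, 8 were called: ATF4, DDIT3, ATF3, ASNS, TRIB3, HERPUD1 and XBP1 rose and HSPA5 fell. Among all genes, 61.0% were called, 30.1% higher and 31% lower at 24 h, so that a call by itself was common. The median log2 fold change was 0.41 over the 9 genes and -0.0081 over all genes. In bulk RNA, a change in the cells that express a gene and a change in its RNA per cell cannot be told apart.

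Of the transcription factors, ATF4 was between 370.4 and 608 CPM at 6 h (median 439, 18 libraries) and between 507 and 789 at 24 h (median 668). All 18 libraries of 24 h were above the median of 6 h, and 14 were above the highest library of 6 h. ATF4 rose 1.45-fold (log2 fold change 0.54, SE 0.061, adjusted p = 2.53e-09). DDIT3, a target of ATF4, was between 10.5 and 20.2 CPM at 6 h (median 14.1) and between 12.1 and 24.8 at 24 h (median 17.8). The times overlapped widely, with 5 of 18 libraries of 24 h above the highest of 6 h, and the rise was 1.28-fold (log2 fold change 0.36, SE 0.079, adjusted p = 0.000217). ATF3 was between 1.48 and 5.69 CPM at 6 h (median 3.95) and between 3.69 and 10.1 at 24 h (median 6.73). Its rise of 1.92-fold was the largest of the 9 genes (log2 fold change 0.94, SE 0.15, adjusted p = 2.41e-06), with the largest SE, and it had 11 to 258 reads per library.

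Among the targets that act in metabolism and signalling, TRIB3 was between 108 and 227 CPM at 6 h (median 154) and between 201 and 306 at 24 h (median 238). It rose 1.58-fold (log2 fold change 0.66, SE 0.065, adjusted p = 9.98e-11), and all 18 libraries of 24 h were above the median of 6 h. ASNS was between 28.5 and 77.8 CPM at 6 h (median 42.9) and between 39.4 and 111 at 24 h (median 66.5). It rose 1.46-fold (log2 fold change 0.55, SE 0.12, adjusted p = 0.000189), but only 15 of 18 libraries of 24 h were above the median of 6 h and its mean was higher at 24 h in 5 of 6 conditions. SESN2, which lies on the same pathway, was not called. Its libraries ran from 34.96 to 50.3 CPM at 6 h and from 34.8 to 51.4 at 24 h, with a log2 fold change of -0.0079 (95% interval -0.11 to 0.098, adjusted p = 0.909) whose sign turned under other settings.

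Of the genes of the ER, XBP1 was between 343 and 407 CPM at 6 h (median 390.4) and between 437 and 538 at 24 h (median 489). It was the only gene of the 10 whose 18 libraries of each time did not overlap, which 6.02% of all genes showed. It rose 1.28-fold (log2 fold change 0.35, SE 0.030, adjusted p = 5.13e-12). HERPUD1 was between 63.9 and 86.0 CPM at 6 h (median 73.7) and between 85.9 and 111 at 24 h (median 98.2), with 17 of 18 libraries of 24 h above the highest of 6 h. It rose 1.33-fold (log2 fold change 0.41, SE 0.039, adjusted p = 6.61e-11). HSPA5 went the other way, from 1182 to 1473 CPM at 6 h (median 1334) to between 1079 and 1338 at 24 h (median 1234). It fell by 0.10 on the log2 scale (SE 0.034, adjusted p = 0.00986), with 16 of 18 libraries of 24 h below the median of 6 h. With upper quartile scaling HSPA5 was not called (log2 fold change -0.068, adjusted p = 0.0822).

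**Figure D2:**
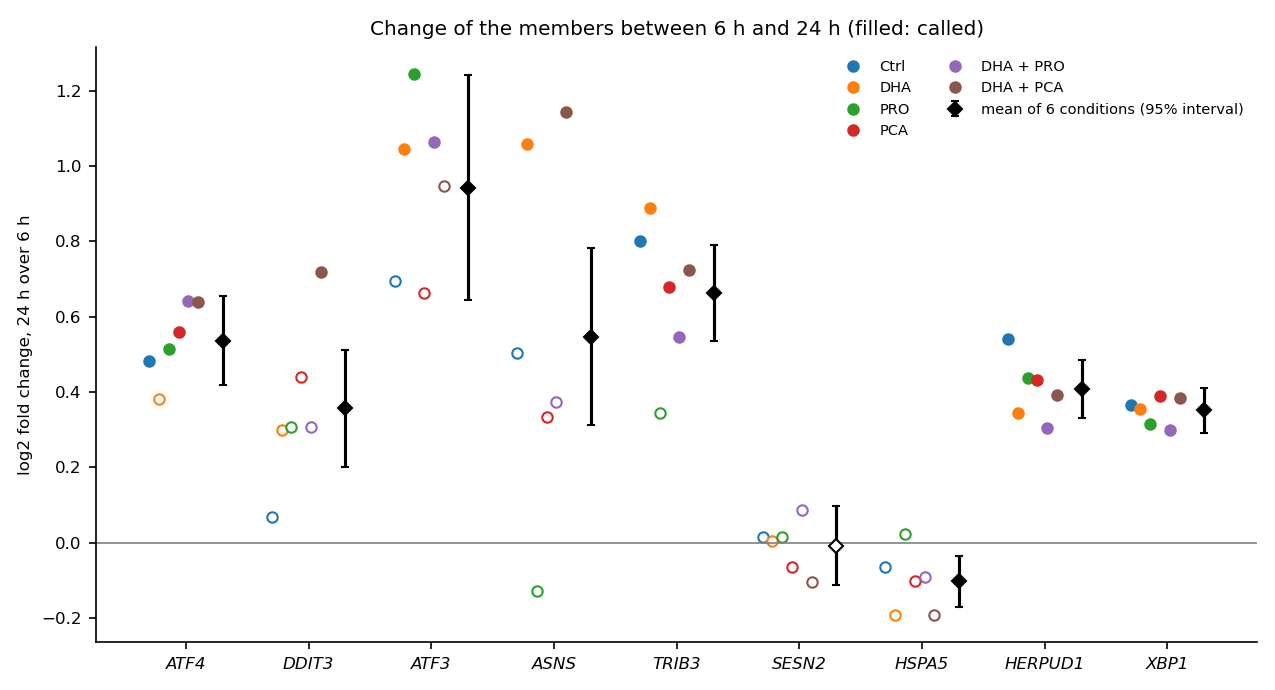
Log2 fold change of 24 h over 6 h (y axis) for the 9 genes tested (x axis), as a circle for each of 6 conditions and a black diamond with its 95% interval for their mean, filled where called. XBP1 and HERPUD1 have 6 filled circles each, and the diamond of SESN2 is open at -0.0079.

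Within single conditions, 4 of the 9 genes were called between 6 h and 24 h in Ctrl (26% of all genes), 5 in DHA (19.4%), 4 in PRO (14.1%), 4 in PCA (27.5%), 5 in DHA + PRO (20.3%) and 6 in DHA + PCA (18.7%), all of them higher at 24 h. XBP1 and HERPUD1 rose in 6 of 6 conditions, by 0.30 to 0.39 and by 0.30 to 0.54 on the log2 scale. ATF4 and TRIB3 were each called in 5 conditions. ATF4 in DHA had 0.38 (adjusted p = 0.0654) and was called with the library series as a factor (adjusted p = 0.0184), with upper quartile scaling (0.0421) and without the filter (0.0493). TRIB3 in PRO had 0.34 (adjusted p = 0.149) and was called with the library series as a factor (0.36, adjusted p = 0.0289). ATF3 rose in DHA (1.04), PRO (1.24) and DHA + PRO (1.06). ASNS, the asparagine enzyme, rose in DHA (1.06, adjusted p = 0.00984) and DHA + PCA (1.14, adjusted p = 0.00544), and DDIT3 rose in DHA + PCA (0.72, adjusted p = 0.00818). Differences between conditions in these changes were not tested except for the presence of DHA, given below. The calls of XBP1, and that of ASNS in DHA + PCA, held without any 1 of the 6 libraries compared. In fits of only the 6 libraries compared, XBP1 was not called in DHA + PRO (0.29, adjusted p = 0.0888) or PRO (0.31, adjusted p = 0.0925), HERPUD1 was not called in DHA + PRO (0.30, adjusted p = 0.135) or DHA (0.34, adjusted p = 0.0619), and ATF3 and TRIB3 were not called in DHA + PRO. In such fits ASNS was called in Ctrl (0.52, adjusted p = 0.0377) and ATF3 in DHA + PCA (0.95, adjusted p = 0.0362). The other calls of ATF3 and ASNS depended on single libraries. ATF3 in DHA was called in 2 of 6 fits, being lost without replicate 1 at 6 h and without replicate 1, 2 or 3 at 24 h, and in DHA + PRO in 1 of 6, being kept only without replicate 2 at 6 h. ATF3 in PRO was lost without replicate 1 at 6 h or replicate 2 at 24 h, and ASNS in DHA without replicate 1 or 3 at 24 h. ATF4 was lost in Ctrl without replicate 2 or 3 at 6 h or replicate 1 at 24 h, and in PRO without the same 3 numbers and times, and in DHA it was gained without replicate 1 at 6 h or replicate 2 at 24 h. HERPUD1 was lost in DHA without replicate 2 at 6 h, and in DHA + PRO without replicate 2 or 3 at 6 h or replicate 2 at 24 h. TRIB3 was lost in DHA + PRO without replicate 1 at 6 h, and DDIT3 in DHA + PCA without replicate 1 at 24 h, while ATF3 in DHA + PCA was gained without replicate 3 at 6 h.

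Against the vehicle, no gene of the 9 tested was called in any of the 5 treatments at either time. At 6 h, the share of all genes called was 0% with PRO and with PCA, and 0.0168% with each of DHA, DHA + PRO and DHA + PCA. At 24 h it was again 0% with PRO and with PCA, and came to 0.286% with DHA + PCA, 0.395% with DHA + PRO and 0.193% with DHA alone. With so few calls among all genes, the absence of a call among 9 was near the background. DESeq2's Wald test called none of the 9 in these 10 comparisons either. At an unadjusted p of at most 0.05 in edgeR, there was 1 (ASNS with PRO) at 6 h, beside 196 of all 11872 genes. At 24 h there were 2 with DHA (708 of all 11893 genes), 1 with DHA + PRO (952), 3 with DHA + PCA (887) and none with PRO (716) or PCA (454). The 5 treatments of a time share the 3 Ctrl libraries, so their values are not independent of each other.

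ASNS had the widest differences among treatments. At 24 h its 3 libraries were at 65.6, 40.9 and 67.3 CPM in Ctrl, 111, 47.3 and 107 in DHA, 93.9, 80.8 and 39.4 in DHA + PRO and 94.1, 103 and 74.6 in DHA + PCA. DHA and DHA + PRO each had 1 low library. Log2 fold changes against Ctrl were 0.60 (SE 0.27) for DHA, 0.30 (SE 0.27) for DHA + PRO and 0.64 (SE 0.27) for DHA + PCA, with adjusted p = 0.82, 0.839 and 0.607. In a fit of DHA + PCA and Ctrl alone the last was called (0.64, adjusted p = 0.0276). Without DHA, ASNS was at 72.3, 55.3 and 47.7 CPM in PRO and at 54.5, 62.7 and 41.8 in PCA at 24 h. At 6 h PRO had the highest group mean of ASNS, with libraries at 37.8, 77.8 and 77.3 CPM (log2 fold change 0.64, SE 0.25, unadjusted p = 0.0184, adjusted p = 1).

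TRIB3 had its lowest means at 24 h in DHA + PRO and DHA + PCA. It was at 265, 260.3 and 306 CPM in Ctrl, 220.5, 219.7 and 205 in DHA + PRO and 227, 210.1 and 227 in DHA + PCA. DHA alone, at 234, 201 and 298 CPM (mean 244), and PRO alone, at 211, 261 and 243 CPM (mean 238), had similar means, and both overlapped with Ctrl, while PCA was at 264, 262 and 293 CPM. The log2 fold changes were -0.37 (SE 0.11, adjusted p = 0.288) for DHA + PRO, -0.32 (SE 0.11, adjusted p = 0.48) for DHA + PCA and -0.18 (SE 0.11, adjusted p = 0.941) for DHA. The adjusted p-values did not reach the threshold in these comparisons with 3 libraries a group.

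Libraries were also compared by the presence of DHA, as the mean of DHA minus Ctrl, DHA + PRO minus PRO and DHA + PCA minus PCA, with 9 libraries on each side. In this pooled comparison 0.202% of all genes were called at 6 h and 1.23% at 24 h, in fits without the replicate number. In these fits again none of the 9 tested here was called, by edgeR or by DESeq2's Wald test. At an unadjusted p of at most 0.05, 2 of the 9 passed at 6 h (342 of 11872 genes did) and 6 of the 9 at 24 h (1175 of 11893). The medians over the 9 genes were -0.015 at 6 h and 0.039 at 24 h, beside 0.00029 and 0.0070 over all genes. With the replicate number as a block in edgeR, TRIB3 was called at 6 h (log2 fold change -0.33, adjusted p = 0.00204), as were 64 of all 11872 genes. At 24 h that block called ASNS (0.55, adjusted p = 0.0248) and TRIB3 (-0.21, adjusted p = 0.0315), beside 367 of all 11893 genes. For each replicate number, the column headers carry the same run of numbers in every group. The labels do not say that the numbers mark shared cultures.

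ASNS came nearest to a call in the fits without the block, whose values follow. With DHA it was between 39.4 and 111 CPM at 24 h (median 93.9, 9 libraries) and without DHA between 40.9 and 72.3 (median 55.3), and 7 of 9 libraries with DHA were above the median without. The log2 fold change was 0.55 (SE 0.16, 1.47-fold, unadjusted p = 0.00185, adjusted p = 0.0989). At 6 h it was -0.076 (SE 0.15). The call turned on single libraries, as ASNS was called at 24 h without DHA replicate 2 (0.66, adjusted p = 0.0131), without PRO replicate 1 (0.61, adjusted p = 0.0370) and without DHA + PRO replicate 3 (0.64, adjusted p = 0.0191). Without the filter on low counts it was called as well (0.56, adjusted p = 3.77e-05).

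TRIB3, the gene that holds back ATF4, had lower means with DHA at both times, in 3 of 3 backgrounds. At 6 h it was between 108 and 170.2 CPM with DHA (median 128) and between 127 and 227 without (median 169), and 8 of 9 libraries with DHA were below the median without. The log2 fold change was -0.33 (SE 0.11, unadjusted p = 0.00527, adjusted p = 0.792). At 24 h it was between 201 and 298 CPM with DHA (median 220.5) and between 211 and 306 without (median 262), again with 8 of 9 below, and the log2 fold change was -0.21 (SE 0.065, unadjusted p = 0.00358, adjusted p = 0.149). TRIB3 was called at 24 h without DHA replicate 3 (-0.27, adjusted p = 0.0100) and without PRO replicate 1 (-0.24, adjusted p = 0.0464), and at 6 h with the library series as a factor (-0.38, adjusted p = 0.00580).

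The remaining genes differed by less. At 24 h DDIT3 had a log2 fold change of 0.28 (SE 0.10, adjusted p = 0.283), with 9 of 9 libraries with DHA above the median without. SESN2 had 0.21 (SE 0.077, adjusted p = 0.285), with 8 of 9 above, and a like value at 6 h (0.19, SE 0.075, adjusted p = 1). HSPA5, the chaperone, had -0.12 (SE 0.045, adjusted p = 0.305) and XBP1 -0.099 (SE 0.046, adjusted p = 0.471), and for both 9 of 9 libraries with DHA were below the median without. With and without DHA the libraries of each of these 4 genes overlapped. ATF4 itself had 0.039 at 24 h (95% interval -0.11 to 0.19) and -0.0068 at 6 h (95% interval -0.17 to 0.16), with a sign that turned at 24 h without PCA replicate 3 and at 6 h without any 1 of 8 libraries. The intervals for HERPUD1 were -0.17 to 0.044 at 24 h and -0.068 to 0.16 at 6 h, and those for ATF3 -0.18 to 0.36 and -0.60 to 0.47.

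**Figure D3:**
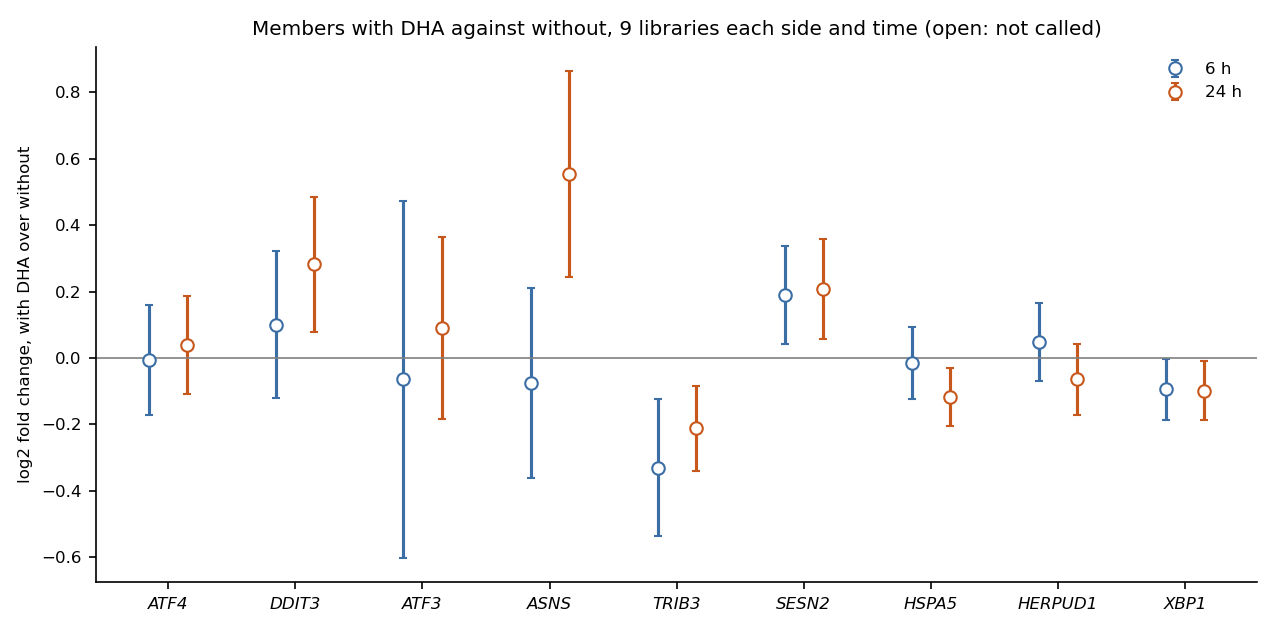
Log2 fold change with DHA over without (y axis) for the 9 genes tested (x axis) at 6 h (blue) and 24 h (orange), with 95% intervals from 9 libraries a side. No circle is filled, as no gene was called, and ASNS at 24 h lies highest at 0.55.

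The change of the pooled DHA difference from 6 h to 24 h was tested directly. In edgeR, 0% of 12046 genes and none of the 9 were called. DESeq2's Wald test called 6 of 12046 genes and none of the 9. At an unadjusted p of at most 0.05 in edgeR there was 1 of the 9, beside 368 of all genes. That gene was ASNS, whose difference was larger by 0.62 at 24 h (SE 0.24, unadjusted p = 0.0136, adjusted p = 1). For ATF4 the change was 0.037 (95% interval -0.20 to 0.27).

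Adding PRO or PCA to DHA called no gene of the 9 at either time. Among all genes, 0% were called for DHA + PRO over DHA at 6 h, 0% for DHA + PCA over DHA at 6 h, 0% for DHA + PRO over DHA at 24 h and 0% for DHA + PCA over DHA at 24 h. DESeq2's Wald test called none of the 9 either. Among all genes it called 8 for DHA + PRO over DHA at 24 h, all higher. It called 0 for DHA + PCA over DHA at 24 h and 0 for either addition at 6 h. ATF3 for DHA + PRO over DHA at 24 h was the only gene of the 9 at an unadjusted p of at most 0.05, which 527 of 11893 genes reached there. Its libraries were at 10.1, 7.99 and 8.10 CPM in DHA and at 5.35, 6.18 and 6.28 in DHA + PRO (log2 fold change -0.54, SE 0.23, unadjusted p = 0.0276, adjusted p = 0.999). In DHA + PCA it was at 7.26, 7.58 and 4.94 CPM (-0.41, SE 0.24, adjusted p = 0.999).

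CHAC1 was too low for the main tests and is given by its reads. At 6 h, 1 read was found in 146280336 counts of 18 libraries (DHA + PRO replicate 2). At 24 h there were 21 reads in the 9 libraries with DHA, 8 of which held a read, and 5 reads in the 9 libraries without, 4 of which held a read. This was 0.220 CPM of the summed library totals with DHA (exact Poisson 95% interval 0.136 to 0.336) and 0.0794 without (0.0258 to 0.185), and these intervals cover counting error only. By library, CPM with DHA were 0.327, 0 and 0.434 in DHA, 0.334, 0.192 and 0.143 in DHA + PRO and 0.354, 0.322 and 0.15 in DHA + PCA. Without DHA they were 0, 0 and 0.135 in Ctrl, 0.115, 0 and 0.293 in PRO and 0, 0 and 0.137 in PCA. In the edgeR fit without the filter on low counts, CHAC1 was not called with DHA at 24 h (log2 fold change 1.58, adjusted p = 0.655). Without the filter, its change from 6 h to 24 h in the mean of the 6 conditions was 2.95 (adjusted p = 0.00212, edgeR). That change was not called either, as the average log2 CPM of CHAC1 was not above 0. No library held more than 8 reads, and 8 of the 21 reads with DHA lay in the deep library, DHA + PRO replicate 2, without which 13 reads remained.

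Libraries that carry the same replicate number also differed from those of other numbers. Tested across the 3 numbers within a time, 5 of the 9 genes were called at 6 h (35.4% of all genes) and 2 at 24 h (17.2%). At 6 h ATF3 was at a median of 1.87 CPM in the 6 libraries of replicate 1, 4.82 in those of replicate 2 and 4.45 in those of replicate 3 (adjusted p = 0.000307). ASNS had medians of 36.4, 46.7 and 50.4 CPM in the same order (adjusted p = 0.000429). Its highest library of replicate 1 (41.06 CPM) lay below the lowest of replicate 2 (41.37) but above the lowest of replicate 3 (40.86). TRIB3 had 125, 168 and 174 CPM (adjusted p = 7.36e-05) and HSPA5 1226, 1341 and 1357 (adjusted p = 0.0210). ATF4 went the other way, at 515, 434 and 424 CPM (adjusted p = 0.00170). At 24 h the genes called were ATF4, at 738, 665 and 632 CPM (adjusted p = 0.0164), and SESN2, at 41.3, 46.0 and 37.4 CPM (adjusted p = 0.0377). The 24 h calls rested on single libraries: 0 were left without Ctrl replicate 1 or DHA replicate 1, 4 were made without PRO replicate 2, and 1 was left without Ctrl replicate 3, PRO replicate 3, PCA replicate 2 or 3, DHA + PRO replicate 1, 2 or 3, or DHA + PCA replicate 2 or 3. Every replicate 3 was in the later series of library numbers, so for replicate 3 the part of that series cannot be told apart from the number. Replicates 1 and 2 were in the earlier series, apart from DHA + PRO replicate 2 at 6 h.

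**Figure D4:**
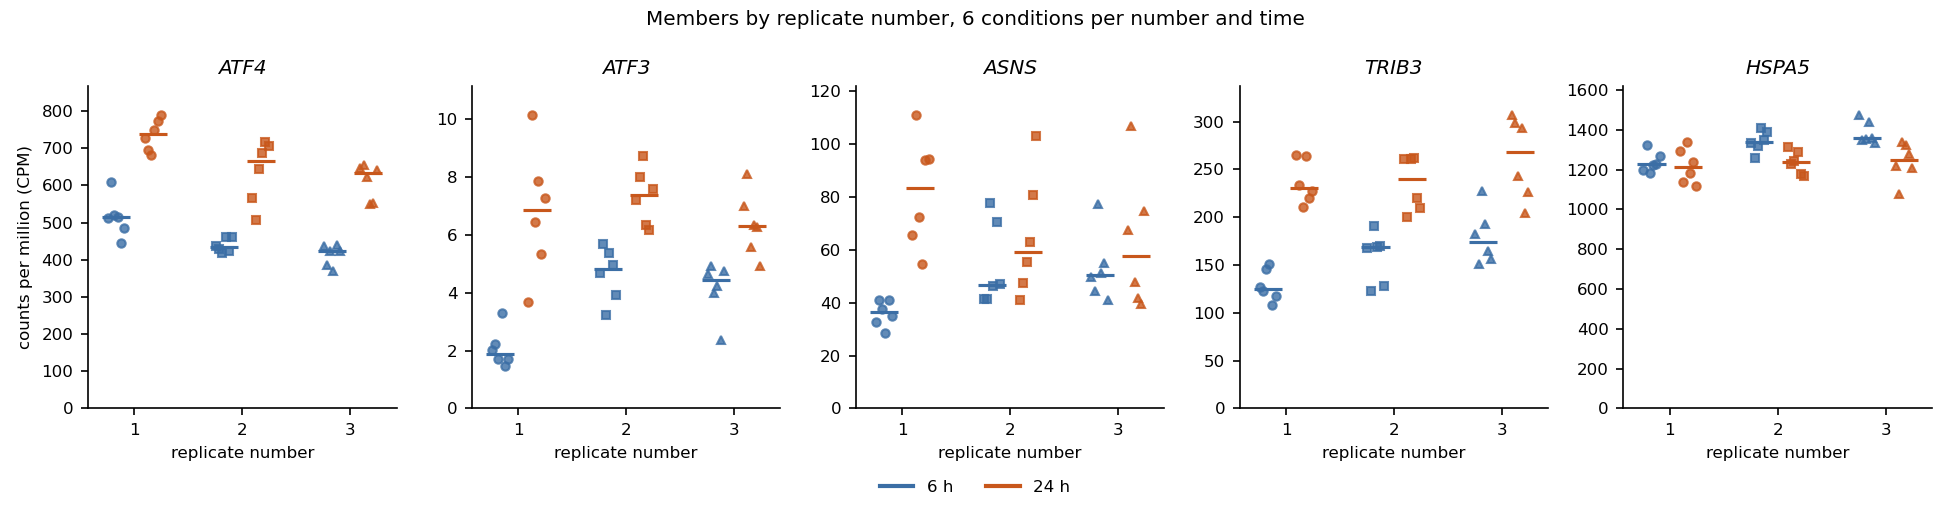
CPM (linear axis from 0) of 5 genes by replicate number (x axis), 6 h in blue and 24 h in orange, with a point for each of the 6 conditions and a bar for their median. At 6 h replicate 1 has the lowest median of ATF3 (1.87 CPM) and the highest of ATF4 (515 CPM). For ATF3 its range overlaps those of replicates 2 and 3. For ATF4 its range (446 to 608 CPM) overlaps that of replicate 2 but not that of replicate 3 (370 to 439 CPM).

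The wider pathway was followed in 5 gene lists that hold none of the 10 genes. The lists were chosen with earlier results of these data known, so their shares beside all genes are a description and no test. They were the genes downstream of ATF4 (37 of 38 tested), the cytosolic aminoacyl-tRNA synthetases (20), which load amino acids on tRNAs, ER chaperones, folding and degradation factors (50 of 51), stress sensors and eIF2 control (21) and immediate early genes (17 of 20), which answer growth signals within minutes. In the mean change from 6 h to 24 h, 22 genes downstream of ATF4 rose (59.5% of those tested, against 30.1% of all genes), 7 fell (18.9%, against 31%) and 8 were not called, with a median log2 fold change of 0.33 beside -0.0081 for all genes. The largest rises were ADM2 (1.05), a secreted peptide, ALDH1L2 (0.99), a mitochondrial folate enzyme, VEGFA (0.98), which promotes vessel growth, and INHBE (0.95), a hepatokine. The largest falls were KLHL24 (-0.67), NUPR1 (-0.47), SLC6A9 (-0.32) and SLC38A2 (-0.27), the last of which carries amino acids into the cell. In the immediate early list 13 genes rose (76.5%) and none fell (median 0.51), led by EGR1 (1.20), NR4A1 (1.01), IER3 (0.95) and JUND (0.88).

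In the ER list 12 genes rose (24%), 17 fell (34%) and 21 were not called (median -0.042), shares near those of all genes. KDELR3 (0.62), which returns proteins to the ER, DNAJB9 (0.50), a cochaperone of BiP, MANF (0.48) and KDELR2 (0.22) rose most. HYOU1 (-0.47), a chaperone, SEL1L (-0.42), of the degradation complex, DNAJB11 (-0.34) and ERO1LB (-0.33) fell most, and with upper quartile scaling the counts were 14 higher and 15 lower. Among sensors and eIF2 factors 4 rose (19%, against 30.1% of all genes) and 12 fell (57.1%, against 31%), with a median of -0.20. Those that rose were IMPACT (0.50), ERN1 (0.46), which encodes the sensor IRE1, EIF2AK1 (0.33) and CREB3L3 (0.31), and the largest falls were PPP1R15B (-0.36), GCN1L1 (-0.32), EIF2AK2 (-0.32) and ATF6B (-0.30). Of the tRNA synthetases 4 rose (20%) and 7 fell (35%), 55% called beside 61% of all genes (median 0.00087), with AARS (0.22), YARS (0.15), LARS (0.13) and IARS (0.12) higher and VARS (-0.57), KARS (-0.38), NARS (-0.28) and WARS (-0.17) lowest.

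With DHA at 24 h, 2 of the 145 genes tested in the 5 lists were called (1.38%), beside 1.23% of all genes. Each of the 2 was higher, whereas of all 11893 genes 34 were called higher and 112 lower. SLC7A11, which imports cystine and is a known target of ATF4, rose (log2 fold change 0.57, SE 0.13, adjusted p = 0.0207), from a median of 41.4 CPM without DHA to 65.3 with DHA. CREB3L3, a liver transcription factor anchored in the ER, rose (0.63, SE 0.10, adjusted p = 0.000784). List medians were 0.11 for genes downstream of ATF4, 0.088 for tRNA synthetases, -0.097 for the ER list, 0.016 for sensors and -0.19 for immediate early genes, beside 0.0070 for all genes. The count of genes downstream of ATF4 called higher depended on the fit. It was 10 without the filter (64 of all 16659 genes), 6 by DESeq2's Wald test (66 of 11893) and 4 with the library series as a factor (55 of 11893), beside 1 in the main fit (34 of 11893). It was 0 without Ctrl replicate 2, DHA replicate 1, PRO replicate 3, DHA + PRO replicate 1 or 2 or DHA + PCA replicate 1 or 2, and 9 without DHA replicate 2, 5 without PRO replicate 2, 3 without DHA + PRO replicate 3 and 2 without Ctrl replicate 3 or PRO replicate 1. At 6 h no gene of the 5 lists was called with DHA.

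**Figure D5:**
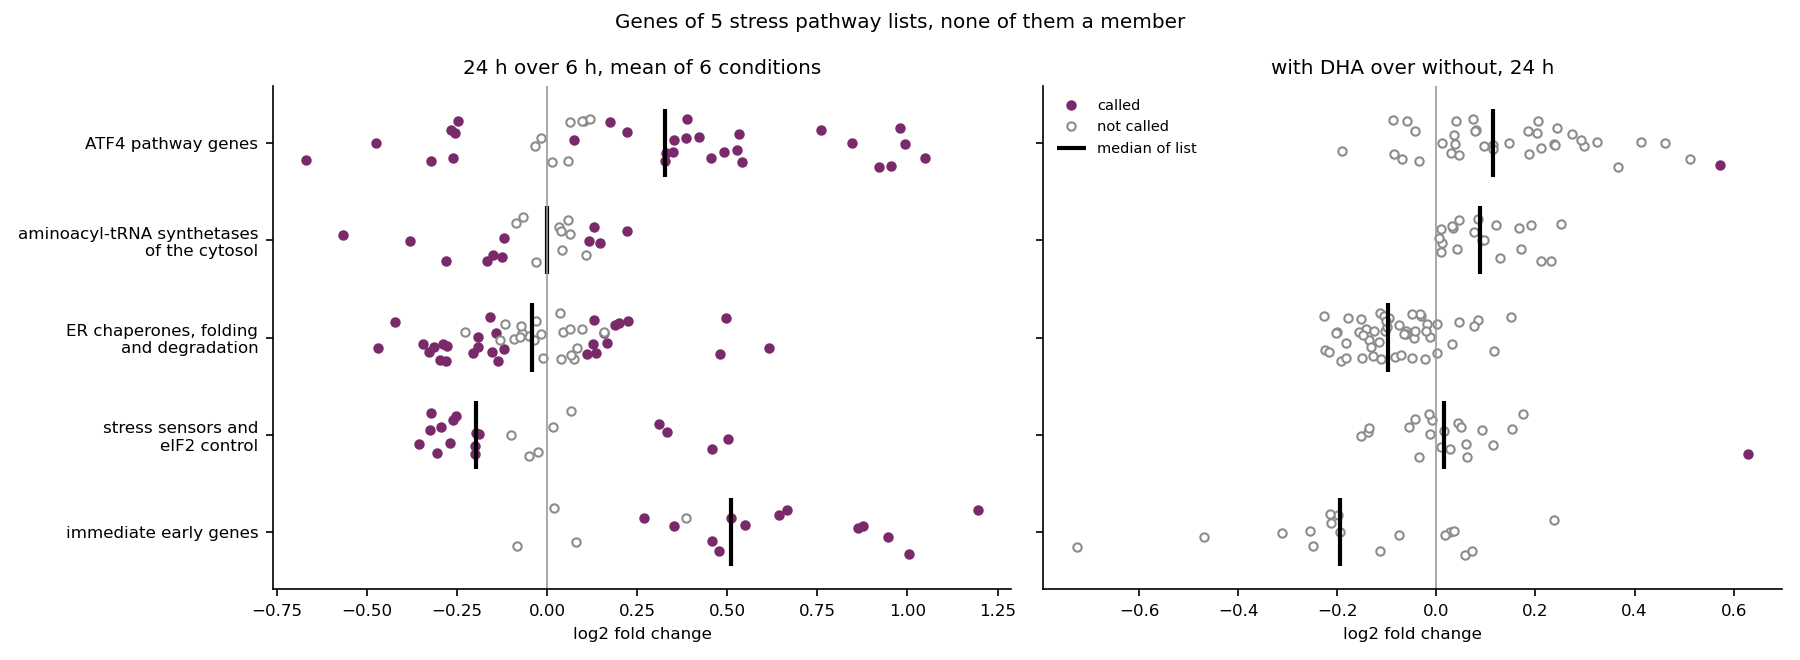
Log2 fold change (x axis) of the genes of 5 lists (y axis), from 6 h to 24 h on the left and with DHA over without at 24 h on the right, with called genes filled and a black bar at each list's median. On the left the medians run from -0.20 for sensors to 0.51 for immediate early genes, and on the right SLC7A11 (0.57) and CREB3L3 (0.63) are the only filled points.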

How the data were processed

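Gene counts of 36 HepG2 libraries (12 groups of 3) were analysed. The authors' deposited counts are whole numbers of reads over the exons of each gene, with the counted length beside them. STAR and the builds hg19 and GRCh37 are named in the submitters' processing notes, with no version, and the study's methods name iRNA-seq for counting. Whether counting used strand is not given in the sources used here. The 36 totals, 4659744 to 42326734 counts, set the precision. From the counts, CPM with TMM library sizes and RPKM were computed.

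Genes were filtered with edgeR 4.0.16 (filterByExpr, R 4.3.3, limma 3.58.1), and quasi-likelihood tests were fitted over the 18 libraries of a time, or over all 36 for the times, with Benjamini-Hochberg adjustment. A gene was called at an adjusted p of at most 0.05 with an average log2 CPM above 0. Intervals of 95% are 1.96 SE to either side. The edgeR fit of DHA against Ctrl at 24 h was tried on simulated data as a check of the code, and its power is not reported here. Named genes were the 10 genes, from each list up to 4 called rises and 4 called falls by size in the comparison of times and in the pooled DHA comparisons, and HMGCS1. The genes and lists were chosen with earlier results of these data known. Alternatives were DESeq2 1.42.0 (Wald test, size factors), upper quartile scaling, no filter, no limit on average level, the library series as a factor, a replicate block, the deep library thinned, only the groups compared, and each library left out. The likelihood ratio test of DESeq2 for replicate numbers was added after seeing the data. So was an exact permutation test of CHAC1, which is not reported because its counts had prompted it. Plots used matplotlib 3.10.9 (Python 3.11.15).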

Additional observations from a re-analysis of the deposited data

How the results depend on the processing

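In the mean of the 6 conditions, the 7 rises from 6 h to 24 h were called under all 44 alternatives, and the fall of HSPA5 under 43. The counts of called genes among the 9 tested moved elsewhere. For the pooled DHA comparison at 24 h the count was 0 (146 of all 11893 genes). It became 1 without the filter on low counts (200 of 16659), 2 with a replicate block (367 of 11893) and 0 to 2 when single libraries were left out. At 6 h it became 1 with a replicate block (64 of all 11872 genes) and 1 with the library series as a factor (46 of 11872). For DHA + PCA against Ctrl at 24 h it became 1 in a fit of only the groups compared (61 of all 11542 genes). Between times, the count of 5 in DHA was 3 to 5 when single libraries were left out, and the count of 5 in DHA + PRO was 3 to 4 then and 1 in a fit of only the groups compared. Between replicate numbers at 24 h, the count of 2 was 0 to 4. The causes were not tested, except that fits of fewer libraries hold fewer degrees of freedom.

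The labels do not say that replicate numbers mark shared cultures, though the column headers repeat the same run of numbers for a replicate number in every group. Deviations from group means of same-numbered libraries correlated by 0.256 on average at 6 h and 0.153 at 24 h, over 0.1 in 36 and 34 of 45 pairs, and 18 of 18 libraries at each time were closer to their own number, which is a hint from the data. With the replicate block, ASNS (0.55, adjusted p = 0.0248) and TRIB3 (-0.21, adjusted p = 0.0315) were called with DHA at 24 h and TRIB3 (-0.33, adjusted p = 0.00204) at 6 h. From 6 h to 24 h, calls were added for ATF4 in DHA (0.40, adjusted p = 0.00322), TRIB3 in PRO (0.36, adjusted p = 0.0248), DDIT3 in PCA (0.44, adjusted p = 0.0339), ATF3 in DHA + PCA (0.98, adjusted p = 0.0247) and HSPA5, lower, in DHA (-0.19, adjusted p = 0.0459) and DHA + PCA (-0.19, adjusted p = 0.0448). With DHA at 24 h, 10 genes downstream of ATF4 were called higher in place of 1. The block also raised the calls among all genes, with DHA at 24 h from 146 to 367 of 11893 (higher, from 34 to 114) and at 6 h from 24 to 64 of 11872. Between the times they became 3195 of 12046 in DHA (2341 without the block), 2516 in PRO (1694), 4272 in PCA (3313) and 3062 in DHA + PCA (2248). CHAC1 (0 to 8 per library) and ATF3 (11 to 258) had the fewest reads of the 10 genes. With the deep library thinned, ATF3 was not called from 6 h to 24 h in DHA + PRO (1.08, adjusted p = 0.0562, edgeR).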
